A study of Mus musculus with 8 samples.

Results

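Intestinal epithelial cells of mice with both an IKKα that cannot be activated and stabilised β-catenin were compared with cells of mice with stabilised β-catenin alone. The comparison took 4 of the 8 Affymetrix arrays of the study, 2 labelled IEC_IKK-AA_bCATca (double mutants here) and 2 labelled IEC_bCATca (bCATca), chosen by their titles. The bCATca mice carried the β-cat c.a. alteration, an inducible β-catenin that cannot be degraded in the normal way, and the double mutants carried it together with the Ikkα AA/AA genotype. The other 4 arrays, 2 of wild type (WT) and 2 of Ikkα AA/AA mice (IKK-AA), are given as levels for orientation and in a test of the difference between 2 differences. All groups, WT included, had received tamoxifen by gavage on 5 consecutive days, all had the mixed strain background C57BL/6 x 129Sv x FVB, and cells were taken 15 days after the first dose. Neither the promoter that drives the inducible recombination nor the age or sex of the mice was given in the labels. According to the design text, stabilisation was restricted to the intestinal epithelium, expanded the crypts and reduced differentiated cells, and the arrays were made to look for what IKKα controls in that expansion. The AA allele is known as a germline knock-in, so that all cells of a double mutant, immune cells included, would carry it. Nothing in the labels says whether the 2 arrays of a group came from separate animals, so the spread that the p-values measure is that of these samples and may be technical.

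β-catenin is held low in resting cells by a destruction complex. When it is stabilised it enters the nucleus, binds factors of the TCF/LEF family and turns on target genes, among them secreted and intracellular inhibitors that feed back on Wnt signalling. In the intestine this programme maintains the stem cells at the crypt base, and its overactivity is the usual first step of intestinal tumours. IKKα is a kinase known for the alternative NF-κB pathway, in which it triggers the processing of the Nfkb2 precursor, and the AA allele replaces the serines whose phosphorylation activates it.

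Values below are log2 intensities of 1 probe set per gene, the brightest by its mean over the 8 arrays. The threshold was a Benjamini-Hochberg adjusted p of 0.05, taken over 12393 genes in a limma model of all 8 arrays, with n = 2 arrays per group throughout, and "rose" and "fell" refer to double mutants relative to bCATca.

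Promoters of genes that rose are shown first, because the gene groups described below that hold them, interferon-stimulated genes and clock genes, have well known promoter elements. Each sequence holds the 250 bases before the transcription start, 5′ to 3′ on the gene's strand, from RefSeq on GRCm38.p6. In the first pair the capitals mark GAAANNGAA, the core bound by interferon regulatory factors. The Oas3 promoter (chr5:120777660-120777909, minus strand) holds it at -75 and, overlapping, at -69 from the start. The Ddx60 promoter (chr8:61927837-61928086, plus strand) holds it at -53 and at -19.
Oas3: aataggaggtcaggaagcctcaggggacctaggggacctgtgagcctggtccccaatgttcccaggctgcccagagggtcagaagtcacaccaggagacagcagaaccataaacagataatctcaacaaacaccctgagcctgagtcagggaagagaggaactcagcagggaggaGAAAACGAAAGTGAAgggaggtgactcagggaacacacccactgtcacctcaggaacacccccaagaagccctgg
Ddx60: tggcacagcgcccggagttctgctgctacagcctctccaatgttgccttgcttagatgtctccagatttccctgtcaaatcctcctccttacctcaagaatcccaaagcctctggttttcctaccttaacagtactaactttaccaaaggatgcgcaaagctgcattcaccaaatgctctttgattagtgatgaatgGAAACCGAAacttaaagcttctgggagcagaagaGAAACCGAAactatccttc
In the second pair the capitals mark CACGTG, the E-box bound by the clock factors BMAL1 and CLOCK, at -166 in Per1 (chr11:69098699-69098948, plus strand) and at -127 in Tef (chr15:81802423-81802672, plus strand).
Per1: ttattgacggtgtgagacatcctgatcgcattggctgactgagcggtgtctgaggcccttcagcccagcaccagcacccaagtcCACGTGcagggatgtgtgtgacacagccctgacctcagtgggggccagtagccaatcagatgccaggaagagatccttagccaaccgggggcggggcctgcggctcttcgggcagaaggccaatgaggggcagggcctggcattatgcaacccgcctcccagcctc
Tef: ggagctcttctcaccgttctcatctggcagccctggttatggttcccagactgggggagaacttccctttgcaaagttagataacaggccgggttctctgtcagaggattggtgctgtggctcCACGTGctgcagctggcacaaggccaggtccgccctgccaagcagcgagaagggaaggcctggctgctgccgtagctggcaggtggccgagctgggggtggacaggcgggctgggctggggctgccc
Both strands were searched in 32851 promoters of this length. The interferon element was found in 7.13% of them, in 2 of the 5 interferon-related genes that rose and had a promoter in the table, and in 21 of 49 measured members of the interferon and MHC class I lists. The E-box was found in 6.02% of all promoters, in 2 of 3 clock genes that rose and had a promoter, and in 4 of 17 measured clock genes. The TCF/LEF core ATCAAAG (3.21% of all promoters) was found in none of the 3 Wnt target genes that fell and had a promoter, and in 3 of 23 measured Wnt targets. The clock's D-box TTANGTAA (2.06%) was found in none of the 3 clock genes and in 1 of 17 measured ones. The κB consensus (3.9%) was not found in the 1 chemokine gene that fell and had a promoter, and was found in 16 of 56 measured members of the NF-κB target and chemokine lists. The percentages count promoters, whereas a gene was counted if any of its promoters in the table held the motif. Counted by promoter, the interferon element was in 2 of 6 promoters of the genes that rose, and the E-box in 3 of 5. These matches describe letters in a window and were not tested for use.

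The 4 arrays compared were similar in the checks that follow, whereas the T cell and plasma cell markers, described below, read lower in double mutants. Ctnnb1, which encodes β-catenin itself, read 12.34 and 12.37 in bCATca, against 12.35 and 12.31 in double mutants. Each of the 4 arrays correlated best, across genes, with the other array of its group (r = 0.9914 in bCATca and 0.9929 in double mutants). The replicate arrays differed by more than 2-fold in 167 genes in bCATca and in 83 genes in double mutants. The epithelial markers Epcam (12.48 to 12.65), Cdh1 (11.12 to 11.33), Vil1 (11.84 to 12.20) and Krt8 (13.08 to 13.19) were high on all 4 arrays. The smooth muscle marker Myh11, the fibroblast markers Col1a1 and Pdgfra, the endothelial marker Pecam1 and the erythroid marker Hba-a1 lay at or below 4.03 on all 4 arrays. Other markers of these cell types lay above that level on all 4: Acta2 read 5.15 to 5.75 and Des 5.11 to 5.92 (muscle), Cdh5 4.31 to 4.45 (endothelium) and Alas2 4.85 to 5.58 (erythroid cells). The level of 4.03 is the highest reading of genes that cannot be expressed in a sample (Y-linked genes on the 1 array with high Xist, and Xist on the other 7), and it serves here as a guide to background. The first WT array stood apart in this sex check (Y-linked Eif2s3y read 2.02 there and 7.56 on the second) and the 4 arrays compared did not. That WT array still entered the shared spread, the WT levels and the test of the difference between 2 differences.

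Of 12393 genes, 150 passed (1.21%), of which 50 rose (0.403%) and 100 fell (0.807%). At least 2-fold changes were seen in 35 of the genes that rose and in 76 of those that fell. The median difference over all genes was 0.0031. Without regard to a test, both double mutant arrays lay above both bCATca arrays in 2801 genes (22.6%) and below both in 3002 genes (24.2%). At an unadjusted p under 0.05 in limma, 816 genes were higher and 1016 lower. In the test of the difference between 2 differences 1950 genes reached that level. Counts at an unadjusted p in the lists below have these as their base. Of the 100 genes that fell, 19 ended at or below the background guide in double mutants, so their folds are limited by background, and 2 of the 50 that rose started there in bCATca. Of the 66 passing genes with more than 1 probe set, 57 had all probe sets on the same side. The calls rested on few arrays. In 8 further fits, each without 1 array, 145 of the 150 genes failed the test at least once, whereas none changed direction. Without the first double mutant array 11 of the 150 still passed, without the second 25, without the first or second bCATca array 12 and 14, and without either WT array 58. Hacd4, Hs6st2, Myl9, Nkd1 and P4ha2 passed in all 8 fits and in every other setting in which they were tested.

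**Figure D1:**
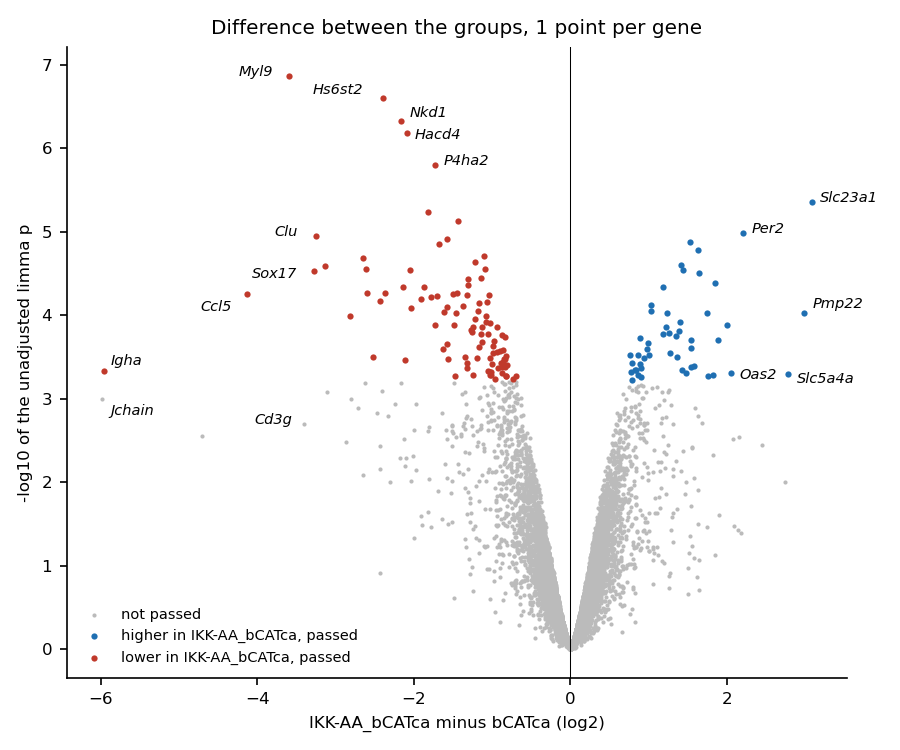
Difference between double mutants (IKK-AA_bCATca) and bCATca on the x axis (log2) against the -log10 of the unadjusted limma p on the y axis, 1 point per gene, with genes past an adjusted p of 0.05 coloured. The 100 genes that fell reach further from 0 and to smaller p-values than the 50 that rose, and Jchain and Cd3g are large differences that did not pass.

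These 5 genes shared a shape: close to background in WT and IKK-AA, well above it in bCATca, and lower again in double mutants. Hs6st2, an enzyme that adds sulphate to the 6-O position of heparan sulphate, read 6.32 and 6.36 in bCATca, against 3.75 and 4.15 in double mutants, against 2.71 and 2.70 in WT. The fall was 5.25-fold (-2.39 ± 0.16, SE; adjusted p = 0.00152), and all 3 of its probe sets went the same way. Myl9, a regulatory light chain of myosin, read 8.86 and 8.64 in bCATca, against 4.84 and 5.47 in double mutants, and stood at 3.39 and 3.26 in WT. It fell by 3.60 on the log2 scale (SE 0.22; adjusted p = 0.00152), which is 12.1-fold. Both groups were thus separated by far more than the distance between their arrays, and the double mutants stayed above WT.

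Hacd4, a dehydratase of very long chain fatty acid synthesis, read 7.22 and 7.37 in bCATca, against 5.08 and 5.34 in double mutants (4.26-fold; adjusted p = 0.002). P4ha2, a catalytic subunit of the prolyl 4-hydroxylase that modifies collagen, read 5.66 and 5.83 against 3.92 and 4.13 (3.3-fold; adjusted p = 0.00395). In P4ha2 the double mutants came down to the WT readings of 4.12 and 4.22, whereas in Hacd4 they remained above the WT readings of 4.26 and 4.22. The highest adjusted p that any of the 5 reached without 1 array was 0.0407, for P4ha2 without the first double mutant array.

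Other genes fell by more than 2-fold as well. Sox17, a transcription factor of the early endoderm, read 9.65 and 10.05 in bCATca, against 5.96 and 7.20 in double mutants, from 3.19 and 3.36 in WT. Bex1, a small X-linked adaptor protein of neural tissue, read 7.77 and 7.91 against 4.66 and 5.81, with 2.73 and 2.62 in WT (6.08-fold; adjusted p = 0.0153). Fstl1, a secreted glycoprotein related to follistatin, read 7.33 and 7.22 against 4.61 and 5.09 (5.38-fold; adjusted p = 0.0192). The groups did not overlap in any of these, and the second double mutant array was the higher one in all 3. Phldb2, a protein of cell adhesion sites, had 5.85 and 5.68 in bCATca, against 2.85 and 3.95 in double mutants, which brought the first array to its WT level (2.86 and 3.21). Pls3, an actin-bundling plastin, had 7.69 and 7.62 against 5.57 and 6.09 (3.54-fold; adjusted p = 0.0103). The cytoskeletal and adhesion genes Pdlim7 (3.21-fold; adjusted p = 0.0134), Pdlim4 (2.97-fold; adjusted p = 0.0207) and Marcksl1 (2.71-fold; adjusted p = 0.0113) fell as well. Each gene of this paragraph lost its call in at least 1 fit without an array, with the highest adjusted p, 0.166, for Pdlim4 without the first double mutant array.

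**Figure D2:**
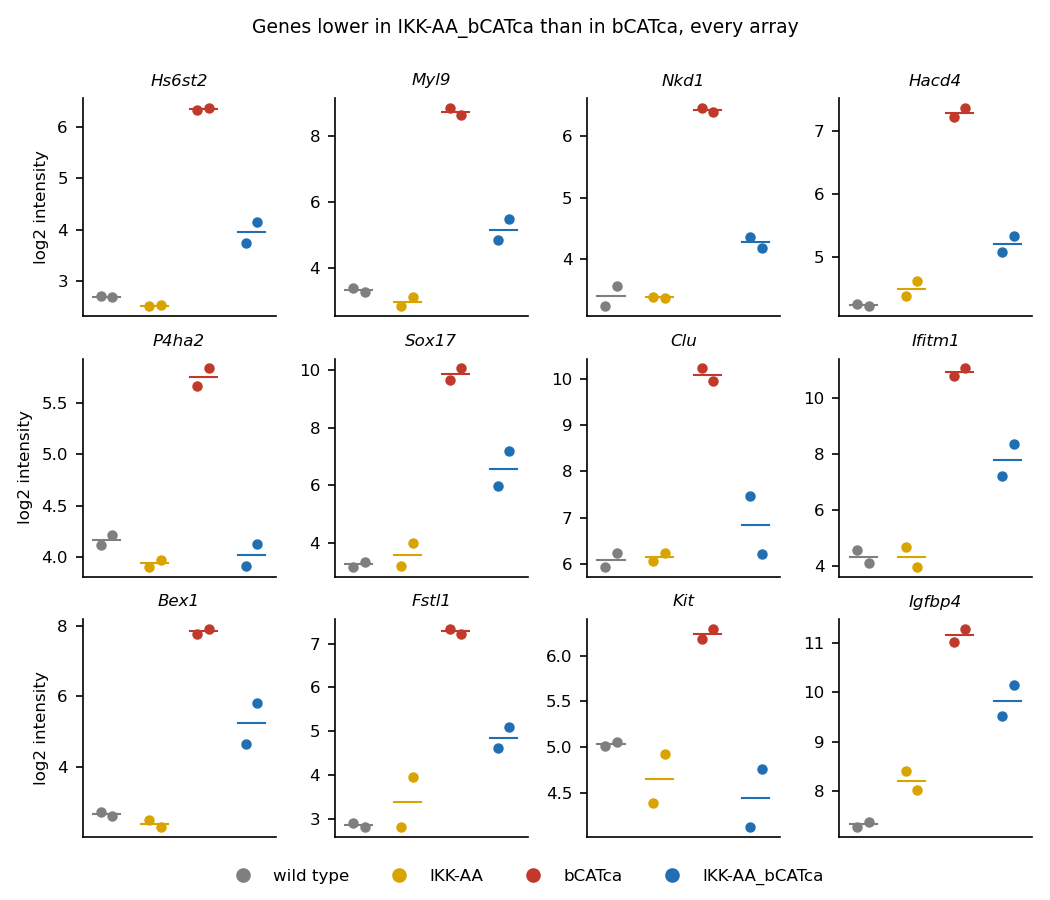
Log2 intensity (y axis, its own range in each panel) of 12 genes that fell, with 1 point per array and a line at the mean of 2 arrays, for wild type, IKK-AA, bCATca and double mutants (IKK-AA_bCATca). The bCATca arrays lie highest in every panel and the double mutant arrays lie below both of them, for example 3.75 and 4.15 against 6.32 and 6.36 for Hs6st2.

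Some Wnt target genes fell, among them feedback inhibitors. Of 35 measured targets, 5 fell and none rose, and the median was -0.42 (30 of the differences were below 0 and 5 above). Both double mutant arrays were below both bCATca arrays in 23 (24.2% of all genes) and above both in 1 (22.6% of all genes). Nkd1, which binds Dishevelled and dampens the pathway inside the cell, fell 4.48-fold (-2.16 ± 0.15, SE; adjusted p = 0.00192). Wif1, a secreted protein that traps Wnt ligands, read 3.92 and 3.93 in bCATca, against 2.77 and 2.66 in double mutants (limma adjusted p = 0.0153). Both groups thus lay below the background guide. Msx1, a homeobox gene, read 8.59 and 8.28 against 6.83 and 7.12, with 5.90 and 5.70 in WT (2.76-fold; adjusted p = 0.021). Notum, an enzyme that inactivates Wnt ligands by removing their lipid, and Apcdd1, a membrane inhibitor, fell 4.11-fold and 2.37-fold (adjusted p = 0.0207 and 0.0456). All 4 probe sets of Apcdd1 were lower.

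The most widely used readouts of the pathway did not pass. All those named here except Ccnd1 had a lower mean in the double mutants, by amounts that varied. Axin2, a scaffold of the destruction complex, read 9.43 and 9.26 in bCATca, against 8.41 and 8.71 in double mutants (-0.79 ± 0.16, SE; adjusted p = 0.0674). Ascl2, a transcription factor of crypt stem cells, read 7.83 and 7.58 against 6.62 and 6.76 (adjusted p = 0.0742), and Cd44 read 8.26 and 8.55 against 7.38 and 7.59 (adjusted p = 0.0774). Their groups did not overlap, and these genes, like the rest named in this paragraph, were chosen for their role after their values had been seen. Lgr5, the receptor that marks crypt stem cells, read 8.12 and 7.20 against 5.52 and 6.67 and its WT arrays 5.58 and 5.72 (adjusted p = 0.28). Tnfrsf19, another receptor of crypt cells, read 7.32 and 7.18 against 4.67 and 6.21 (adjusted p = 0.0843). Myc (7.61 and 7.84 against 7.14 and 7.46) and Ccnd1 (8.62 and 9.17 against 8.97 and 8.97), which drive proliferation, had adjusted p-values of 0.282 and 0.924. With only the 4 arrays of the comparison in the fit 8 targets fell. Of the 5 targets that passed, Nkd1 alone kept its call without each array in turn, and Apcdd1 reached the highest adjusted p, 0.224, without the first double mutant array.

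Of 16 crypt stem cell genes 2 fell, with a median of -0.60, and of 27 genes of fetal-like or regenerating epithelium 7 fell, with a median of -0.68; none in either list rose. In the stem cell list the members that fell were Prom1 (10.78 and 10.41 against 9.38 and 9.70; adjusted p = 0.0444), a membrane protein of protrusions, and Igfbp4, which binds insulin-like growth factors. Igfbp4 read 11.02 and 11.28 in bCATca, against 9.51 and 10.14 in double mutants (2.5-fold; adjusted p = 0.0408), with all 6 probe sets lower and WT at 7.28 and 7.38. Neither gene returned to its WT level in the double mutants. In the regenerative list Clu, a secreted chaperone, had double mutant arrays far apart, at 7.46 and 6.21, against 10.23 and 9.95 in bCATca and 5.94 and 6.23 in WT. One of the 2 arrays was thus at the WT level and the other was not. S100a6, a calcium-binding protein, read 10.23 and 10.27 in bCATca, against 8.99 and 8.27 in double mutants (3.08-fold; adjusted p = 0.021). Anxa3 (2.48-fold; adjusted p = 0.0169), Anxa5 (2.25-fold; adjusted p = 0.0339) and Krt7 (1.83-fold; adjusted p = 0.0427) also fell, beside Sox17 and Bex1 described above. Anxa3 and Anxa5 belong to the annexins, which bind membranes in the presence of calcium, and Krt7 is a simple-epithelial keratin. With 16 added to each intensity before taking logs, or with the replicate number added to the fit, neither Prom1 nor Igfbp4 passed. All of these lost their call in some fit without an array, and Prom1 reached the highest adjusted p, 0.254, without the first double mutant array.

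Binding proteins of insulin-like growth factors and parts of the TGF-β pathway were among the genes that fell. In the IGF list, 3 of 17 fell, all of them binding proteins, while the median of the list was 0.05. Igfbp1 read 6.08 and 5.24 in bCATca, against 3.58 and 3.93 in double mutants, from 2.50 and 2.36 in WT (3.75-fold; adjusted p = 0.0189). Igfbp3 read 5.29 and 5.14 against 3.87 and 4.29 (2.2-fold; adjusted p = 0.0307). Both were at or near the background guide in the double mutants. Among 31 genes of BMP and TGF-β signalling, 3 fell and none rose (median 0.02). Tgfbr2, the type II receptor, read 8.88 and 8.96 in bCATca, 7.89 and 8.14 in double mutants and 6.89 and 6.67 in WT (1.87-fold; adjusted p = 0.0359). Its ligand Tgfb1 read 5.25 and 5.33 against 4.50 and 4.43 (1.78-fold; adjusted p = 0.0456), and Id2, an inhibitor of differentiation factors induced by BMP, 8.63 and 8.47 against 7.46 and 7.62 (2.01-fold; adjusted p = 0.0408). Tgfb1 and Id2 ended below their WT readings (5.09 and 4.87; 8.44 and 8.46), Tgfbr2 above. These 5 genes lost their call in some fit without an array, up to an adjusted p of 0.234 for Id2 without the first double mutant array.

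Of 40 measured interferon-stimulated genes, 8 rose and none fell, and the median was 0.91 (39 of the differences were above 0 and 1 below). In 35 both double mutant arrays lay above both bCATca arrays (22.6% of all genes). Oas3, whose promoter is shown above and whose product makes the second messenger that activates RNase L, read 7.31 and 6.69 in bCATca, against 8.62 and 9.14 in double mutants (3.68-fold; adjusted p = 0.03). Ddx60, an RNA helicase of antiviral sensing, read 8.15 and 7.17 against 9.15 and 9.25 (2.91-fold; adjusted p = 0.0427). Mx1, an antiviral GTPase, read 4.70 and 4.04 against 5.77 and 5.75 (2.62-fold; adjusted p = 0.0271), and Sp100, a protein of nuclear bodies, 6.65 and 6.47 against 7.53 and 7.65 (2.04-fold; adjusted p = 0.021). In each of them the first bCATca array was the higher one of its group and still lay below both double mutants. Oasl2 (2.79-fold; adjusted p = 0.0453) and Parp12 (2-fold; adjusted p = 0.0377) rose as well, beside Oas2 (4.16-fold; adjusted p = 0.0453) and Ifi27l2a (3.98-fold; adjusted p = 0.025). Several members with similar differences did not pass, such as Usp18, which removes the ubiquitin-like ISG15, at 8.86 and 8.53 against 10.68 and 10.85 (adjusted p = 0.0957), and Irf7, a factor of the interferon loop, at 9.51 and 8.82 against 10.24 and 10.58 (adjusted p = 0.0561). They were picked after their values had been seen.

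WT levels differed from gene to gene in this group. Sp100 read 6.65 and 6.44 in WT and Ddx60 7.78 and 7.82, close to bCATca in both cases, whereas Oasl2 read 8.64 and 8.22 in WT, 9.81 and 9.04 in IKK-AA, 9.40 and 9.01 in bCATca, against 10.62 and 10.76 in double mutants. The limma test of whether the AA allele acted differently with and without stabilised β-catenin passed for none of the 40 genes (smallest adjusted p 0.126). Of the 40, 10 had an unadjusted p under 0.05 in it, against 1950 of all 12393 genes. The effect was thus not shown to depend on β-catenin, nor shown not to. Over the 40 genes the median difference between IKK-AA and WT was 0.50, against -0.005 over all genes. The median of the difference between differences was 0.43, against 0.0032 over all genes. For the 11 GTPases described next these 2 medians were 0.80 and 0.23. Among 11 interferon-inducible GTPases of the GBP and IRG families, which attack vacuoles of intracellular pathogens, the median was 1.11 but none passed in limma (5 at an unadjusted p under 0.05, and 3 passed with only the 4 arrays in the fit). Gbp3 came closest, at 6.20 and 6.34 in bCATca, against 6.90 and 7.58 in double mutants (adjusted p = 0.0877). In the MHC class I list none of 19 passed (median 0.29; 5 higher and 1 lower at an unadjusted p under 0.05), nor did any of 25 genes of the IFN-γ and IL-12 axis (median 0.23; 4 higher and 0 lower). Ifng itself read 2.65 and 3.67 against 3.04 and 2.63, below the background guide on every array. Another OAS gene outside the list, Oas1e, picked after its value had been seen, rose 2.35-fold (adjusted p = 0.021). In the opposite direction, Ifitm1 of the interferon-induced membrane proteins fell 8.81-fold (adjusted p = 0.0153), the only one of 5 measured members of its family to pass. Of the 8 interferon genes that rose, the highest adjusted p without 1 array was 0.231, for Oas2 and Oasl2 without the second bCATca array. With only the 4 arrays of the comparison in the fit 14 of the 40 rose, and with 16 added to each intensity before taking logs 4 did.

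None of 30 components of the NF-κB pathway and none of 37 NF-κB targets passed in limma. Their medians were -0.03 and -0.06 (the latter 0.016 when all probe sets of a gene were averaged). In these lists 4 and 5 members respectively had an unadjusted p under 0.05 in limma, against 1832 of all 12393 genes. Nfkb2, the precursor that IKKα directs into processing, read 6.77 and 6.45 in bCATca, against 6.46 and 6.48 in double mutants. Its partner Relb read 7.96 and 7.38 against 7.52 and 7.44, and the upstream kinase Map3k14 4.84 and 5.02 against 4.75 and 5.05. The groups overlapped in all 3, and none of these transcripts reports the activity of its protein. The members with the smallest p were Tbk1, a kinase of the interferon response (10.26 and 9.82 against 10.65 and 10.71; adjusted p = 0.124), and Tnip1, an inhibitor of NF-κB (9.04 and 8.52 against 9.46 and 9.56; adjusted p = 0.104). Of 41 chemokines and their receptors 2 fell, Ccl5 and Ccl3, and the median was -0.03. Ccl3, which attracts monocytes and T cells, went from 4.97 and 5.07 to 4.12 and 4.18 (1.83-fold; adjusted p = 0.0453; 0.234 without the first double mutant array). The interferon-γ-induced chemokines Cxcl9 (5.83 and 8.01 against 7.59 and 6.76) and Cxcl10 (5.18 and 6.17 against 6.44 and 5.78) overlapped between groups.

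**Figure D3:**
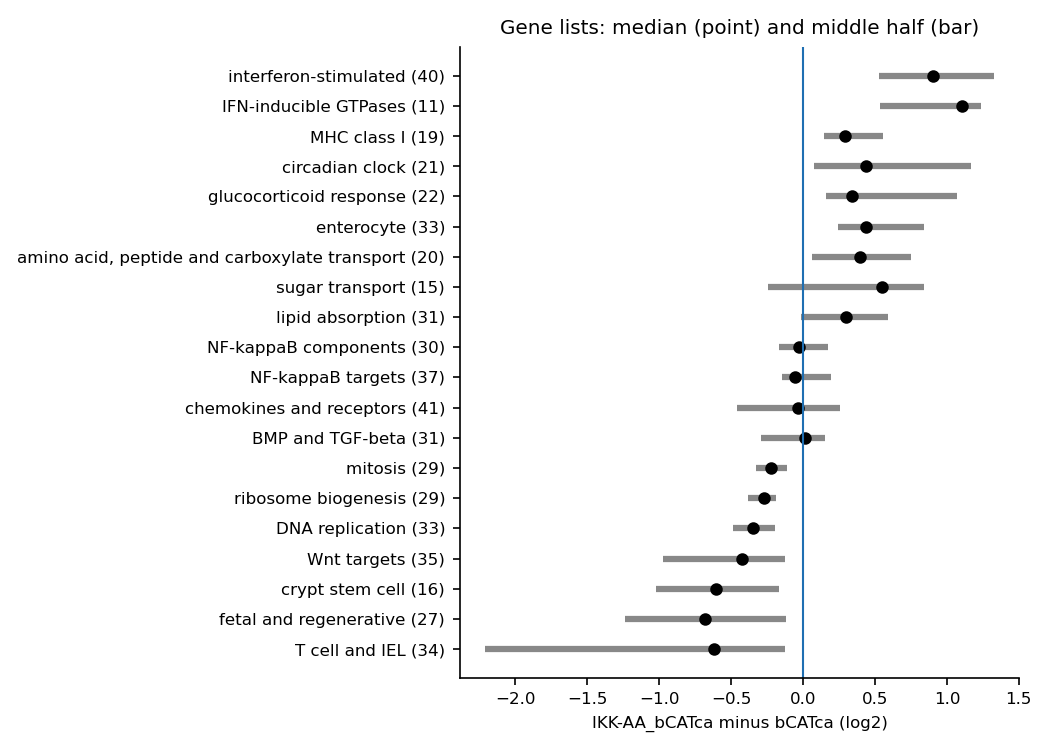
Median (point) and range from the lower to the upper quartile (bar) of the difference between double mutants (IKK-AA_bCATca) and bCATca (log2, x axis) for 20 gene lists, with the number of measured genes in brackets and a vertical line at the median of all genes. Interferon-stimulated genes (median 0.91) lie to the right, NF-κB components (-0.03) at the line, and Wnt target (-0.42), stem cell (-0.60) and T cell (-0.62) genes to the left.

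Ccl5 and Igha, transcripts of lymphocytes and plasma cells, fell by large amounts. Ccl5, made by cytotoxic intraepithelial lymphocytes, read 10.74 and 10.28 in bCATca, against 6.85 and 5.89 in double mutants (17.6-fold; adjusted p = 0.018), and Igha, the heavy chain of immunoglobulin A, 11.75 and 11.31 against 5.50 and 5.64 (62.1-fold; adjusted p = 0.0444). Jchain, which joins immunoglobulin A into dimers, read 8.73 and 8.29 against 2.34 and 2.72, below the background guide, but the first IKK-AA array was low as well and the gene did not pass (adjusted p = 0.0608). Of 34 T cell and intraepithelial lymphocyte genes 1 fell, Ccl5, although the median was -0.62. Both double mutant arrays lay below both bCATca arrays in 22 (24.2% of all genes). The T cell receptor component Cd3g read 7.37 and 6.82 against 3.39 and 4.00 (adjusted p = 0.0838) and the coreceptor Cd8a 7.60 and 6.58 against 4.27 and 4.18 (adjusted p = 0.101). Gzma, a granzyme of cytotoxic granules, read 11.56 and 11.11 against 9.01 and 8.42 (adjusted p = 0.0516).

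In these genes the readings of the IKK-AA arrays lay far apart and widened the spread that the model pools: Cd3g read 5.23 and 8.14 there, Igha 7.43 and 11.70 and Jchain 3.84 and 8.68. When only the 4 arrays of the comparison were fitted, 14 of the 34 T cell genes fell (adjusted p = 0.00264 for Cd3g), as did 5 of 30 myeloid genes, of which none passed with all 8 arrays (8 at an unadjusted p under 0.05 in limma). The summed linear intensity of the T cell list was 9289 and 7089 in bCATca but 2275 and 1813 in double mutants, against 15130 and 11280 in WT and 3812 and 12500 in IKK-AA. That of the B and plasma cell list was 9076 and 8436 against 4941 and 5837, with 5671 and 6425 in WT and 5759 and 8687 in IKK-AA. This sum includes Igha and Jchain, whose fall it repeats, and the list without them was not summed. Among B and plasma cell genes (median -0.11; 14 differences below 0 and 7 above), 2 of 21 fell, Igha and Ms4a1, which encodes CD20 and read 4.08 and 4.37 against 3.19 and 2.98 (adjusted p = 0.0276). With 16 added to each intensity neither Ccl5 nor any B cell gene passed. The macrophage markers Csf1r (5.64 and 5.66 against 5.56 and 5.72), Adgre1 (4.00 and 4.22 against 4.26 and 4.32) and C1qa (5.39 and 5.68 against 5.41 and 5.16) did not pass. The median of the 30 myeloid genes was -0.16. Both double mutant arrays lay below both bCATca arrays in 10 of them (24.2% of all genes) and above both in 3 (22.6% of all genes). Coro1a, an actin-binding protein of leukocytes in that list, read 8.14 and 7.72 against 5.71 and 5.82 (adjusted p = 0.0514). In cells prepared from tissue, fewer lymphocytes and less RNA per lymphocyte cannot be told apart. The part of these cells in the other differences reported here was not tested. Without the first double mutant array Igha had an adjusted p of 0.254, and without the second Ccl5 had 0.145 and Ms4a1 0.173.

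**Figure D4:**
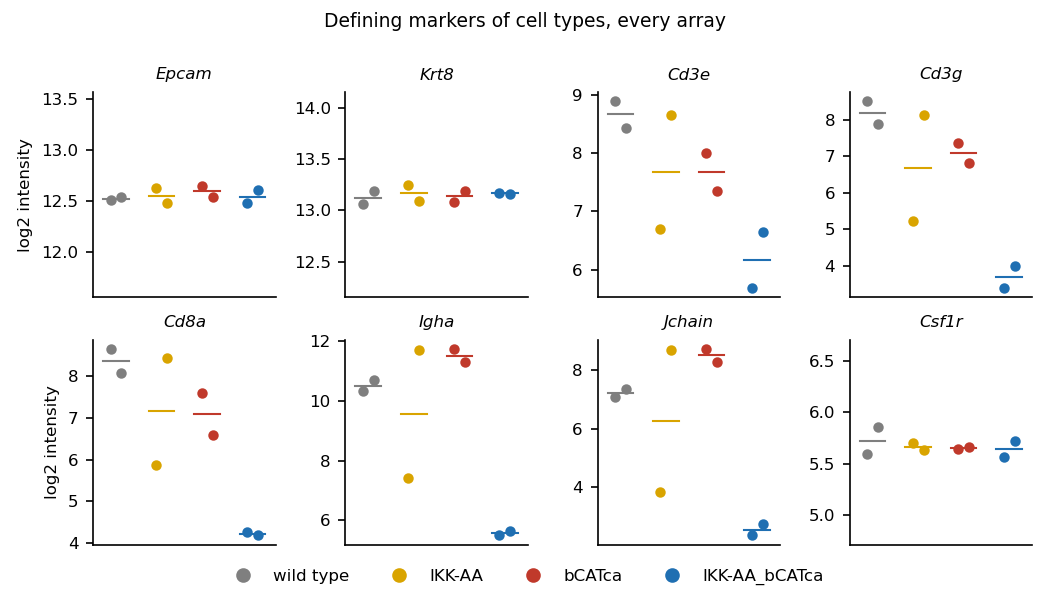
Log2 intensity (y axis, its own range in each panel) of defining markers of epithelium (Epcam, Krt8), T cells (Cd3e, Cd3g, Cd8a), plasma cells (Igha, Jchain) and macrophages (Csf1r), with 1 point per array and a line at the group mean. Epithelial markers are level, the lymphocyte and plasma cell markers are lowest in the double mutants (IKK-AA_bCATca), and the first IKK-AA array lies below the second in the T and plasma cell panels.

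Mast cell proteases of the mucosa fell. Mcpt1 read 7.50 and 6.32 in bCATca, against 3.70 and 4.48 in double mutants, with 5.66 and 4.97 in WT (7.07-fold; adjusted p = 0.0218). Mcpt2 read 8.21 and 7.42 against 4.71 and 5.72, with 6.09 and 5.84 in WT (6.06-fold; adjusted p = 0.018). Kit, the receptor for stem cell factor that mast cells need and that some crypt cells carry, read 6.18 and 6.29 against 4.13 and 4.76 (3.45-fold; adjusted p = 0.018). The 2 compared groups did not overlap in any of the 3, and bCATca was the highest group. IKK-AA read 3.97 and 4.13 for Mcpt1, 5.15 and 5.24 for Mcpt2 and 4.40 and 4.92 for Kit. None of the 3 passed between IKK-AA and WT in limma (adjusted p = 0.345, 0.429 and 0.545). Other mast cell genes did not pass: Cpa3 read 4.97 and 4.89 against 4.48 and 4.79 without overlap (adjusted p = 0.412), and Tpsb2 4.02 and 4.24 against 4.34 and 4.09 with overlap (adjusted p = 0.88). Of 24 mast cell and neutrophil genes these 3 fell and none rose (median 0.03). Both double mutant arrays lay below both bCATca arrays in 5 of the 24 (24.2% of all genes) and above both in 8 (22.6%). The summed intensity of the list was 879.9 and 749.8 in bCATca against 490.6 and 538.7 in double mutants. This sum includes the 3 genes that fell, and the list without them was not summed. The part of mast cell numbers in the fall of the 3 genes was not tested. Without the first double mutant array Mcpt1 had an adjusted p of 0.178 and Mcpt2 0.108, and Kit had 0.119 without the second bCATca array.

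Of 21 measured clock genes, 4 rose (Per1, Per2, Tef and Usp2), none fell, and the median was 0.44 (16 of the differences were above 0 and 5 below). Per2, a repressor of the clock's feedback loop, read 4.35 and 4.78 in bCATca, against 6.59 and 6.95 in double mutants (4.61-fold; adjusted p = 0.0134). Per1, with an E-box in the promoter shown above, read 6.00 and 5.56 against 6.89 and 7.37 (2.55-fold; adjusted p = 0.0284). Tef, a factor that binds D-boxes, read 7.54 and 7.76 against 8.89 and 8.83 (2.32-fold; adjusted p = 0.025), and Usp2, a deubiquitinase with a daily rhythm, 8.42 and 8.23 against 9.57 and 9.91 (2.66-fold; adjusted p = 0.0153). In all but Per1 the double mutants stood near WT, which read 7.24 and 6.68 for Per2, 8.75 and 8.92 for Tef and 9.71 and 9.81 for Usp2. Per3 (5.23 and 5.24 against 6.34 and 6.47; adjusted p = 0.0789) and Cry1 (5.77 and 5.99 against 6.89 and 6.72; adjusted p = 0.0953) did not pass. Dbp, a close relative of Tef, read 6.84 and 5.89 against 7.73 and 8.02, but its WT arrays alone spanned 6.83 to 8.86 (adjusted p = 0.384). Nr1d1, the repressor REV-ERBα, overlapped between the groups (7.85 and 7.05 against 7.44 and 7.72), and so did the activator Clock (7.07 and 6.81 against 6.92 and 7.31).

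Outside the list, Noct, a rhythmic phosphatase of nicotinamide cofactors, rose 2.71-fold (7.91 and 7.62 against 9.02 and 9.38; adjusted p = 0.0153), and Cipc, a partner of CLOCK, 1.81-fold (6.90 and 6.90 against 7.63 and 7.89; adjusted p = 0.0456). Both were picked after their values had been seen. The hour at which the cells were taken is not in the labels, so its part in these differences was not tested. A list of genes linked to glucocorticoid response or synthesis overlapped with the clock list, for example in Per1. Of its 22 measured genes 3 rose (Per1, Tsc22d3 and Nr5a2), none fell, and the median was 0.34 (6 rose with only the 4 arrays in the fit). Tsc22d3, the glucocorticoid-induced leucine zipper, read 7.28 and 6.71 in bCATca, against 8.75 and 8.75 in double mutants, with 9.79 and 8.82 in WT (3.38-fold; adjusted p = 0.0456). Nr5a2, the nuclear receptor that drives glucocorticoid synthesis in the crypt, read 6.35 and 6.40 against 7.35 and 7.27 (1.91-fold; adjusted p = 0.0382). Fkbp5, another classical glucocorticoid target, read 6.57 and 7.30 against 8.64 and 10.13, with arrays too far apart to pass (adjusted p = 0.108). With only the 4 arrays of the comparison in the fit 8 of the 21 clock genes rose. Per2 had its highest adjusted p, 0.0729, without the second double mutant array, and Tsc22d3 had 0.252 without the first.

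Of 33 enterocyte genes 1 rose, Enpep, none fell, and the median was 0.44. Both double mutant arrays lay above both bCATca arrays in 21 (22.6% of all genes). Enpep, a brush border aminopeptidase, read 11.44 and 11.40 in bCATca, 12.34 and 12.54 in double mutants and 12.41 and 12.42 in WT (2.03-fold; adjusted p = 0.0203). Slc13a2, which takes up citrate and succinate, read 9.30 and 9.31 against 10.76 and 11.53 (3.59-fold; adjusted p = 0.0179), and Car4, a membrane-bound carbonic anhydrase, 8.05 and 8.69 against 9.96 and 10.08 (3.13-fold; adjusted p = 0.0153). The amino acid transporter Slc7a8 rose 3-fold (7.48 and 6.98 against 8.53 and 9.09; adjusted p = 0.0427). These 4 genes read lower in bCATca than in WT and lay within or next to the WT range in double mutants, as Slc13a2 (11.48 and 11.31 in WT) and Car4 (10.34 and 10.26) show. In the other transport lists few members passed: 1 of 15 sugar transport genes (Slc5a4a, 6.87-fold), 1 of 31 vitamin and micronutrient genes (Slc23a1, the vitamin C transporter, 8.48-fold), 2 of 20 genes of amino acid, peptide and carboxylate transport, 1 of 34 of ion and water transport and 2 of 31 of lipid absorption rose, and none fell.

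In lipid handling Slc27a4, a fatty acid transport protein, read 10.84 and 10.53 against 11.60 and 11.46 (1.79-fold; adjusted p = 0.0439), and Dgat2, which makes triglycerides, 10.18 and 9.78 against 11.03 and 11.47 (2.41-fold; adjusted p = 0.0362). Acox2, a peroxisomal oxidase of bile acid side chains, read 4.96 and 5.25 against 6.69 and 7.01 (3.35-fold; adjusted p = 0.021), with 7.96 and 7.64 in WT. Ces1f, a carboxylesterase, read 8.61 and 8.16 against 10.09 and 9.94 (3.09-fold; adjusted p = 0.0146), with 11.14 and 11.03 in WT. Both remained below WT. Not all absorptive genes behaved in this way. The detoxification gene Cyp2c29 read 5.59 and 4.00 in bCATca, 5.07 and 4.23 in double mutants and 9.87 and 10.98 in WT. Cubn, the receptor for vitamin B12 with its carrier, read 6.17 and 4.64, 5.61 and 6.84, and 10.74 and 9.67 in the same order. These genes were picked after their values had been seen, and in both of them the double mutants stayed with bCATca. Pmp22, listed among glial genes for its role in myelin but also found in epithelial junctions, rose 7.92-fold (adjusted p = 0.021), while the glial marker Sox10 read 5.80 and 5.85 against 5.95 and 6.09 and did not pass. Among the genes of both paragraphs on absorption, Slc5a4a had the highest adjusted p without 1 array, 0.251 without the first double mutant array, and Slc23a1 passed in 7 of the 8 fits (0.0559 without the same array).

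**Figure D5:**
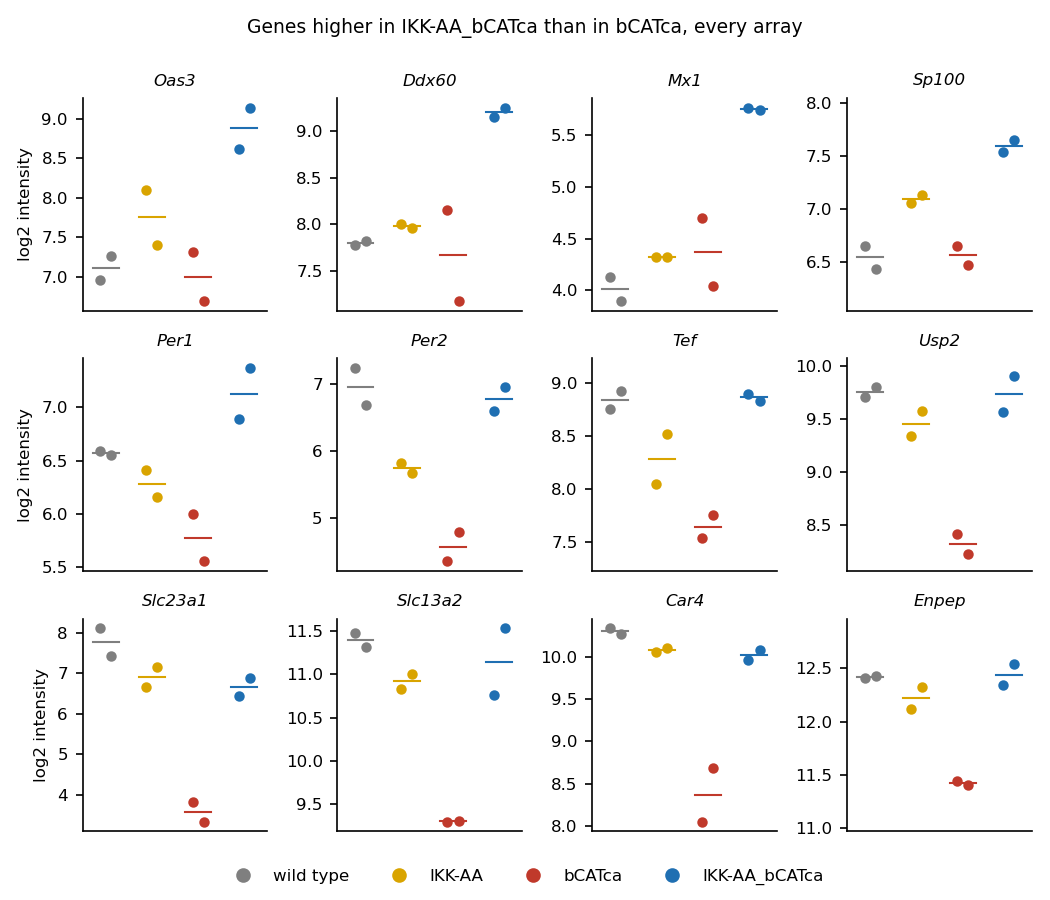
Log2 intensity (y axis, its own range in each panel) of interferon-stimulated genes (top), clock genes (middle) and absorptive genes (bottom) that rose, with 1 point per array and a line at the group mean. In the lower rows the bCATca arrays lie lowest and the double mutants above both of them (for Enpep 12.34 and 12.54, with WT at 12.41 and 12.42), whereas in the top row the double mutants (IKK-AA_bCATca) lie above all other groups.

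Few secretory cell genes passed. Pla2g2a, an antimicrobial phospholipase of Paneth cells, was the 1 gene of 13 in the Paneth list that fell: it read 10.61 and 10.88 in bCATca, 8.96 and 9.57 in double mutants and 7.14 and 6.97 in WT (2.79-fold; adjusted p = 0.025; 0.165 without the second bCATca array). With only the 4 arrays in the fit 4 of the 13 fell. The median of that list was -0.34, with both double mutant arrays below both bCATca arrays in 9 genes (24.2% of all genes) and above both in 1 (22.6%). Lyz1, Paneth cell lysozyme, read 13.29 and 13.31 against 12.47 and 12.41 without passing (adjusted p = 0.174). Of 25 goblet cell genes 1 fell, Fxyd3, a regulator of ion pumps (10.51 and 11.07 against 9.56 and 9.63; adjusted p = 0.0382; 0.223 without the first double mutant array). None of 31 enteroendocrine genes and none of 18 tuft cell genes passed in limma (5 and 4 at an unadjusted p under 0.05, against 1832 of all 12393 genes). Both double mutant arrays lay below both bCATca arrays in 7 of 25 goblet, 8 of 18 tuft and 6 of 31 enteroendocrine genes, against 24.2% of all genes. They lay above both in 1, 2 and 9, against 22.6% of all genes.

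None of 29 mitosis, 33 DNA replication and 29 ribosome biogenesis genes passed in limma. Of them, 0, 10 and 5 were lower at an unadjusted p under 0.05 (1016 of all 12393 genes). Their medians were -0.22, -0.35 and -0.27, against 0.0031 over all genes. In the DNA replication list 30 of 33 members, and in the ribosome list 28 of 29, had a lower mean in double mutants. Mki67, a marker of cycling cells, read 8.92 and 9.38 in bCATca, against 8.83 and 9.02 in double mutants, and Mcm2, a subunit of the replicative helicase, 8.51 and 8.77 against 8.35 and 8.32. Mki67 overlapped between groups and Mcm2 did not. The 1 member of 24 cell cycle regulators that fell was Mycl, a relative of Myc (7.62 and 7.54 against 6.44 and 6.65; adjusted p = 0.0382; 0.226 without the first double mutant array).

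The AA allele was also present without stabilised β-catenin, in IKK-AA mice, so the difference between double mutants and bCATca could be set against that between IKK-AA and WT. The difference between these differences, which takes in the first WT array that stood apart in the sex check, passed for 11 genes (0.0888%). In 9 of them double mutants also differed from bCATca: Slc23a1 (3.95), Per2 (3.42), Acox2 (3.37) and Ces1f (2.08) had values above 0, and Myl9 (-3.23), Hacd4 (-2.35), Hs6st2 (-2.21), Nkd1 (-2.14) and Marcksl1 (-1.81) below. Among the 5 with values below 0 is Nkd1, which read 3.23 and 3.56 in WT and 3.38 and 3.37 in IKK-AA. Per2 and Acox2 read lower in IKK-AA (5.82 and 5.67; 5.82 and 6.53) than in WT (7.24 and 6.68; 7.96 and 7.64), the opposite of their rise in double mutants. The remaining 2 genes did not pass between double mutants and bCATca: Amph (2.04), near background in all groups but WT, and the Wnt receptor gene Fzd7 (-1.58), which read 5.45 and 5.70 in WT, 6.71 and 6.58 in IKK-AA, 7.15 and 7.12 in bCATca, against 6.67 and 6.58 in double mutants. This count was the least stable of the comparison: no gene passed without the first WT array or without either bCATca array (1518, 1901 and 1476 at an unadjusted p under 0.05 in limma), 1 without the first double mutant array, 30 without the second, 8 without the second WT array, and 85 and 234 without the first and second IKK-AA array.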

How the data were processed

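The table deposited by the authors holds linear intensity values, 1 for each probe set on each array. RMA and affy are named in the submitters' processing notes, and their versions are not given in the sources used here. The method sets arrays to a common distribution, so changes in total RNA per cell are not seen, and median intensities lay between 50.9 and 53.8. The log2 of each deposited intensity was taken. Of 22690 probe sets, 20380 carried 1 gene symbol in the platform annotation, 691 several, 1555 none and 64 were controls. The brightest probe set by its mean over the 8 arrays stood for each of 12393 genes, of which 4956 had more than 1. Reading a single probe set per gene can miss transcripts it does not cover.

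With limma 3.58.1 under R 4.3.3, group means were fitted over the 8 arrays together (residual degrees of freedom 4, prior 4.28), and tested on simulated data. All 8 arrays share 1 estimate of the spread. The number of arrays limits the precision, and an exact permutation test of 2 against 2 arrays cannot go below p = 0.333. Named genes were the 20 largest increases and decreases that passed, up to 4 passing members of each of 63 gene lists or else the member with the smallest p, the 5 with the smallest p in the difference of differences, and defining markers of cell types. Others are said to be picked after their values were seen, or are further members of a list under discussion. The members and the gene lists were chosen with earlier results of these data known.

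Alternatives were an offset of 16, cyclic loess, quantile normalisation, the mean of all probe sets of a gene, all probe sets, genes above the median level, an intensity trend in the variance, a replicate block, each array left out, and the 4 compared arrays alone. The gene encoding IKKα is not analysed here. Python 3.11.15 with pandas 2.3.3, numpy 2.4.6 and matplotlib 3.10.9 prepared tables and plots.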

Additional observations from a re-analysis of the deposited data

Results flagged for a closer look

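The effect of the AA allele with stabilised β-catenin (double mutants minus bCATca) differed from its effect without it (IKK-AA minus WT) in 11 genes by the limma test of the difference of differences. It was 3.95 for Slc23a1, 3.42 for Per2, 3.37 for Acox2, 2.08 for Ces1f and 2.04 for Amph on the log2 scale. It was -3.23 for Myl9, -2.35 for Hacd4, -2.21 for Hs6st2, -2.14 for Nkd1, -1.81 for Marcksl1 and -1.58 for Fzd7. Adjusted p-values lay between 0.0166 and 0.0495. In Amph the value came from the WT arrays, which read 4.54 and 4.72, while the other 6 arrays lay between 2.17 and 2.60, below the background guide. In Per2 and Acox2, IKK-AA lay below WT and double mutants above bCATca.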

How the results depend on the processing

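No passing gene changed direction in the alternatives that tested it as a gene (77 of the 150 were among the genes above the median level, and all probe sets were not compared gene by gene). Cyclic loess, quantile normalisation, the variance trend, the mean of all probe sets and the offset of 16 left the count of genes that passed between 119 and 160. With all probe sets, 172 of 22626 probe sets passed. With the 4 compared arrays alone 331 genes passed (105 rose, 226 fell), with genes above the median level 63 (28 fell, and 55.6% rose), and with a replicate block 72 (20 rose, 52 fell). Deviations of the same-numbered bCATca and double mutant arrays from their group means correlated at -0.0995 across genes. With 2 arrays per group the second pair repeats the first, so this value cannot decide whether replicate numbers pair the samples. Leaving out 1 array gave between 11 and 395 genes, 1 to 124 that rose and 8 to 271 that fell. The cause of these changes was not tested. The difference of differences gave 54 probe sets with all probe sets (23 above 0, 31 below), 45 genes above the median level (25 and 20), 52 with a variance trend (26 and 26), 7 with the offset of 16 (0 above) and 6 with the replicate block (2 above). Leaving out 1 array gave 0 to 234 genes, 0 to 125 above and 0 to 109 below. With 1 array of a group left out, the other is assumed to vary like the other groups. Genes near background have compressed folds, and with 2 arrays per group a difference that did not pass may still be real.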

Other observations

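Several genes that changed belong to none of the lists and were picked after their values had been seen. Peg3, Slc38a4 and Asb4, known as imprinted genes, fell. Peg3, a zinc finger protein, read 6.56 and 5.57 in bCATca, against 4.12 and 3.77 in double mutants, with 3.49 and 3.98 in WT (4.34-fold, limma adjusted p = 0.0382, and 0.206 without the second double mutant array). Slc38a4, an amino acid transporter, read 5.01 and 6.00 against 2.86 and 2.87, with 2.50 and 2.36 in WT (6.25-fold, limma adjusted p = 0.0153, and 0.112 without the first double mutant array). Asb4, an adaptor of a ubiquitin ligase, read 6.28 and 5.77 against 3.66 and 4.29, with 3.07 and 3.14 in WT (4.14-fold, limma adjusted p = 0.0153, and 0.104 without the first double mutant array). All 3 were close to the background guide in WT and had no overlap between bCATca and double mutants. Bex3, an X-linked relative of Bex1, fell as well (8.74 and 8.86 against 8.03 and 7.88, limma adjusted p = 0.0382, and 0.219 without the second bCATca array).

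Other genes that fell act outside the cell or receive signals. Robo1, the receptor for Slit proteins, read 3.61 and 3.99 against 2.28 and 2.42 (limma adjusted p = 0.018), below the background guide throughout. Smo, the signal transducer of the Hedgehog pathway, read 7.15 and 7.18 against 5.82 and 6.24, with 5.64 and 5.44 in WT (limma adjusted p = 0.025). Htra1, a secreted protease, read 7.20 and 7.01 against 5.03 and 5.77 (limma adjusted p = 0.018), and Plat, the tissue plasminogen activator, 4.93 and 5.31 against 3.64 and 3.85 (limma adjusted p = 0.0205). P3h4, which like P4ha2 takes part in collagen modification, read 5.34 and 5.18 against 4.22 and 4.14 (limma adjusted p = 0.0218). The highest adjusted p of these 5 without 1 array was 0.163, for Plat without the first double mutant array.

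Among genes that rose, Kcnk5, a potassium channel of epithelia, read 7.52 and 7.19 in bCATca, 8.76 and 9.01 in double mutants and 8.67 and 8.60 in WT (limma adjusted p = 0.0134, and 0.0729 without the second double mutant array). Aldh4a1, which breaks down proline in mitochondria, read 7.14 and 6.48 against 8.11 and 8.57, with 8.23 and 8.39 in WT (limma adjusted p = 0.0299). Otc, a urea cycle enzyme that the intestine uses to make citrulline, read 9.52 and 9.18 against 10.29 and 10.20, with 10.90 and 10.84 in WT (limma adjusted p = 0.0408). Cth, which makes cysteine, read 8.49 and 8.32 against 9.24 and 9.55 (limma adjusted p = 0.0312). In the list of endoplasmic reticulum stress genes 2 of 30 rose, Herpud1 (2.28-fold) and Trib3 (1.96-fold), and the median was 0.22. Of the genes of this paragraph, Otc had the highest adjusted p without 1 array, 0.223 without the first double mutant array.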
